A study of Homo sapiens with 32 samples.

Results

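The interaction of STM2457 with emetine was measured in 12 of the 32 RNA sequencing libraries of the study, the 4 groups of 3 HEK293T libraries in which DMSO or STM2457 for 6 h was combined with DMSO or emetine for 2 h. HEK293T cells derive from human embryonic kidney and express the large T antigen of SV40. The groups are called here STM2457 with emetine (STM2457 6h, Emetine 2h), DMSO with emetine (DMSO 6h, Emetine 2h), STM2457 (STM2457 6h, DMSO 2h) and DMSO (DMSO 6h, DMSO 2h). Per the labels' protocols, STM2457 was used at 20 µM in 0.2% DMSO, emetine at 1.8 µM was present in the last 2 h of the 6 h, and every group, emetine or not, received DMSO as the solvent; the labels of these 12 libraries give no genotype. All libraries came from this one cell line, and the labels do not say whether replicates were grown as separate cultures, so the p-values cover the spread between these libraries, which may be technical. The quantity tested was the STM2457 effect with emetine minus the STM2457 effect without emetine, each effect being a log2 ratio of STM2457 over DMSO. A negative interaction thus means that the effect of STM2457 was more negative, or less positive, when emetine was present. Gene sets and the comparison with YTHDF2 siRNA also used other HEK293T libraries, with DMSO or STM2457 at 20 µM. These were 12 libraries of a knockdown experiment, treated for 6 h with or without YTHDF2 siRNA (20 nM, 48 h), and 8 of a 9 h experiment.

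STM2457 is an inhibitor of METTL3, the catalytic subunit of the nuclear complex that writes N6-methyladenosine (m6A) into mRNA, mainly at DRACH motifs (A, G or T, then A or G, then A, C, and A, C or T). Methylated mRNAs are bound in the cytoplasm by YTHDF proteins, which recruit the CCR4-NOT deadenylase and shorten the life of the mRNA, and m6A is known to lie mostly in long exons and away from splice junctions. Emetine binds the small ribosomal subunit and stops elongation, so that ribosomes stay on the mRNA and short-lived proteins are no longer replaced. The comparison asks whether the change that STM2457 makes in an mRNA is as large when translation has been stopped for the last part of the treatment.

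Gene counts per library were 21781514 to 24875407 in STM2457 with emetine, 24592643 to 26332409 in DMSO with emetine, 24020283 to 27068380 in STM2457 and 25024036 to 28053353 in DMSO. The ERCC spike-in RNAs took 0.432% to 0.454%, 0.400% to 0.470%, 0.575% to 0.585% and 0.529% to 0.592% of the counts of these 4 groups. All 8 HEK293T markers were counted in every library, among them LIN28B with at least 3831 and NEFM with at least 4553 counts. Of the markers of other cell types, 0 of 9 hepatocyte, 3 of 10 blood, 3 of 9 keratin epithelium and 5 of 10 fibroblast genes passed the filter on low counts, and HBB, KRT5, KRT1, PKP1, APOB and FGA were at 0 in all 12 libraries. The summed level of the fibroblast markers that passed was 21.1 to 23.0 CPM (counts scaled to library size) in STM2457 with emetine, 21.0 to 22.3 in DMSO with emetine, 26.8 to 28.0 in STM2457 and 27.9 to 29.1 in DMSO. For the keratin markers it was 129 to 141, 124 to 129, 152 to 174 and 147 to 151 CPM, mostly from DSC3 and KRT10, and for the blood markers 2.82 to 3.03, 2.42 to 2.97, 2.21 to 2.56 and 2.92 to 3.58 CPM. The sum of the HEK293T markers was 1128 to 1176, 1176 to 1192, 1366 to 1405 and 1446 to 1527 CPM. The shares of spike-ins and the sums of the HEK293T, fibroblast and keratin markers were thus lower in both groups with emetine, and the share of ribosomal protein genes was 5.54% to 5.67% and 5.39% to 5.49% with emetine and 7.15% to 7.38% and 6.61% to 7.08% without; their part in the interaction was not tested. None of the 19 markers tested had a called interaction in edgeR's test, and 1 had an unadjusted p under 0.05.

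For 62.2% of the genes with a called interaction the STM2457 effect was less positive or more negative when emetine was present, a share that was 67.8% with scaling to the ERCC spike-ins and 41.1% with scaling to ribosomal protein genes. Among them were mRNAs for transcription factors such as ID3 and SOX4, for ubiquitin ligase adaptors such as KLHL21, and for the m6A reader YTHDF2, whereas the splicing regulator HNRNPLL and the chaperone DNAJB1 went the other way. Of 15817 genes tested, 2810 (17.8%) had an interaction past the threshold of 0.05 on the adjusted p of edgeR's quasi-likelihood test, 1748 of them (11.1%) negative and 1062 (6.71%) positive. By 2-fold or more, 50 genes (0.316%) were negative and 19 (0.12%) positive. The median over all genes tested was −0.01 on the log2 scale (quartiles −0.18 and 0.12), and the median over the called genes was −0.35 for the negative and 0.24 for the positive ones. Among the 1748 genes with a negative call, the fitted STM2457 effect was above 0 both with and without emetine in 1119, above 0 only without it in 459, and below 0 in both settings in 170. Among the 1062 with a positive call, 545 had a fitted effect below 0 without emetine and above 0 with it, 431 were below 0 in both and 86 above 0 in both. In these bulk samples, fewer cells with an mRNA and less of it per cell cannot be told apart.

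**Figure D1:**
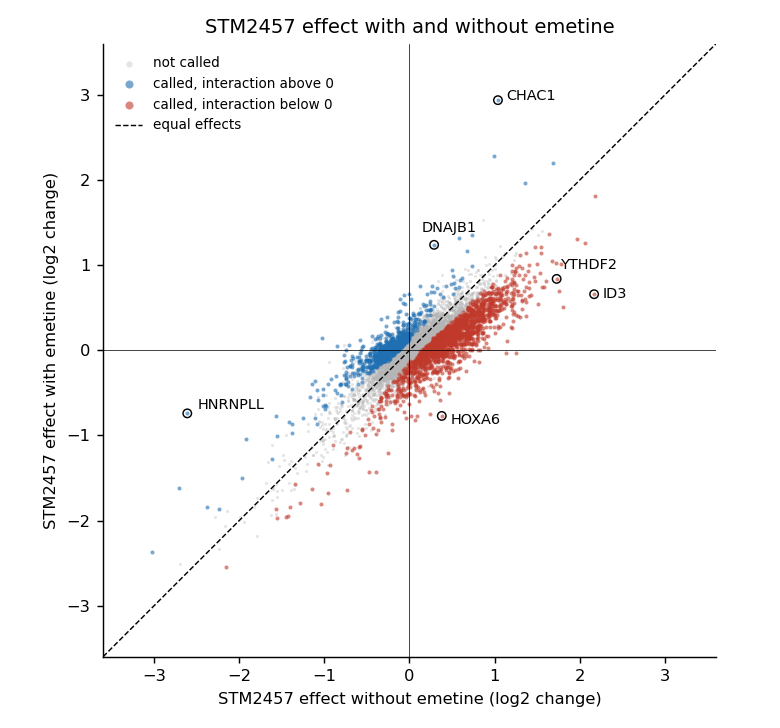
Fitted log2 effect of STM2457 with emetine (vertical axis) against the effect without emetine (horizontal axis), for the 11294 genes whose mean log2 CPM was 2 or more. Points are genes, red and blue ones have a called interaction below and above 0, the dashed line marks equal effects and circles mark 6 genes; most red points lie right of the line with an effect above 0 without emetine.

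The coding sequences of 5 genes of the results below are shown by the 60-base stretch that holds the most DRACH motifs, with each motif in capitals, because DRACH is the sequence at which METTL3 methylates. The stretches are from GENCODE release 29 (GRCh38), written 5′ to 3′ on the mRNA strand, and positions count from the first coding base. ID3, MED18 and YTHDF2 had negative interactions, and HNRNPLL and CHAC1 positive ones.
ID3, coding bases 264 to 323: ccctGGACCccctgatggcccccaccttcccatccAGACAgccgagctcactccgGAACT
MED18, coding bases 263 to 322: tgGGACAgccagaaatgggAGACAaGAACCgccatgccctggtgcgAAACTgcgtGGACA
YTHDF2, coding bases 1167 to 1226: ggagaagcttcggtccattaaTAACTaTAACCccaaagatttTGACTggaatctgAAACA
HNRNPLL, coding bases 726 to 785: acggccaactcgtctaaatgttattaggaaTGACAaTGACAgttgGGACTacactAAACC
CHAC1, coding bases 515 to 574: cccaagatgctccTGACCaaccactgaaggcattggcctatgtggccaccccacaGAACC
The whole coding sequences held 5 DRACH motifs in ID3 (357 bases), 22 in MED18 (624 bases), 39 in YTHDF2 (1737 bases), 25 in HNRNPLL (1626 bases) and 6 in CHAC1 (792 bases). DRACH on the coding strand was in 68.4% of all 60-base coding stretches of the genes tested and GGACT in 5.95%. Overlapping matches were counted and the opposite strand was not searched. The stretches shown were picked for the most motifs, so these shares do not measure how unusual they are.

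Genes chosen as raised by STM2457 in other libraries had, as a group, smaller STM2457 effects with emetine. The 6 wild-type libraries of the YTHDF2 knockdown experiment, with DMSO or STM2457 for 6 h, gave 269 genes raised by 2-fold or more, of which 256 passed the filter in the emetine experiment. Of these 256, 161 (62.9%) had a negative and 3 a positive call, against 11.1% and 6.71% of all genes tested, and their median interaction was −0.45 (quartiles −0.64 and −0.24). Their median fitted STM2457 effect was 0.67 with emetine and 1.13 without. Seen the other way, the median fitted effect of emetine was −0.09 in STM2457 and 0.34 in DMSO. Relative to the mean of the DMSO libraries, the median level of the set stood at 1.08 log2 in each of the 3 libraries of STM2457 with emetine, at 0.32 to 0.39 in DMSO with emetine and at 1.12 to 1.13 in STM2457. The groups did not overlap, and the gap between STM2457 and DMSO was the smaller one with emetine. Among the 186 members whose mean log2 CPM was 2 or more, 157 (84.4%) were called negative, against 14.8% of all 11294 genes at that level. The 9 h experiment, with 4 DMSO and 4 STM2457 libraries, gave 393 raised genes, and of the 354 tested 123 were called negative and 5 positive, with a median of −0.37.

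Genes lowered by STM2457 in those libraries had a median interaction near 0 and a smaller share of negative calls than all genes tested. Of 407 genes lowered by 2-fold or more in the knockdown experiment, 381 were tested, and the median was 0.08. Of these, 28 (7.35%) were called positive and 12 (3.15%) negative, against 6.71% and 11.1% of all genes tested. Their median fitted effect was −1.23 with emetine and −1.31 without. Most were low: where the mean log2 CPM was 2 or more, 22 of 87 (25.3%) had a positive call, against 9.16% of all genes at that level, and 8 a negative one. For the genes lowered at 9 h, 14 of 153 (9.15%) were called positive and 3 (1.96%) negative, with a median of 0.16. Where the mean log2 CPM was 2 or more, 12 of 31 (38.7%) were positive and 1 negative.

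**Figure D2:**
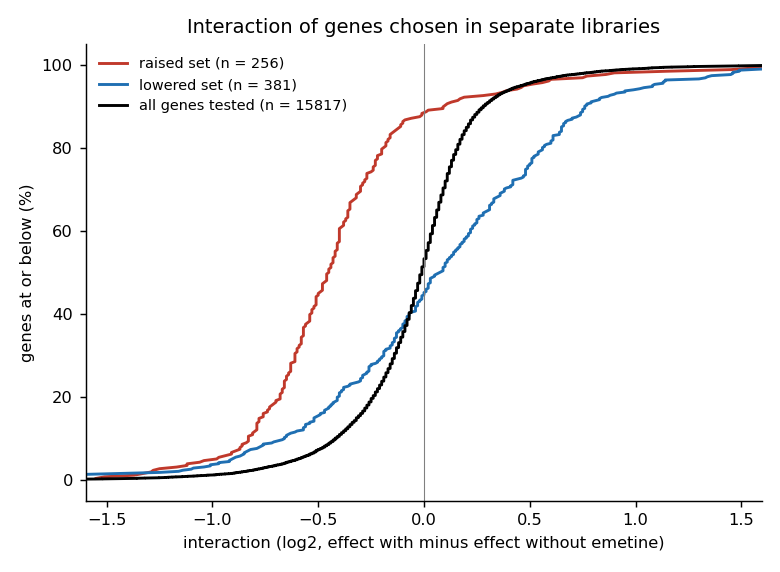
Cumulative share of genes (vertical axis, %) at or below a given interaction (horizontal axis, log2), for the 256 genes raised and the 381 lowered by 2-fold or more in libraries of the knockdown experiment, and for all 15817 genes tested. The raised set is shifted to the left, with a median of −0.45, and the lowered set is spread wider than all genes, with a median of 0.08. The horizontal axis is cut, and some genes lie beyond it, such as NKILA of the lowered set at −4.61.

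ID3, an inhibitor of basic helix-loop-helix transcription factors (ENSG00000117318.9, chromosome 1, 23557918 to 23559794), had the most negative interaction among the genes named. Its level was 139, 142 and 133 CPM in STM2457 with emetine, 87.1, 90.5 and 85.1 in DMSO with emetine, 166, 155 and 158 in STM2457 and 35.7, 35 and 35.4 in DMSO. The 4 groups did not overlap, and emetine alone stood well above DMSO while STM2457 with emetine stayed below STM2457. The STM2457 effect was 0.66 with emetine and 2.17 without, an interaction of −1.51 (SE 0.06, edgeR adjusted p = 1.83e-19).

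YTHDF2, the reader that brings methylated mRNAs to CCR4-NOT (ENSG00000198492.16, chromosome 1, 28736621 to 28769775), followed the same pattern at a higher level. It was at 583, 590.4 and 585 CPM in STM2457 with emetine, 322, 326 and 335 in DMSO with emetine, 759.5, 774 and 764 in STM2457 and 232, 238 and 224 in DMSO. The highest level was in STM2457 and the lowest in DMSO, and both emetine groups lay between them. Its interaction was −0.89 (SE 0.05, edgeR adjusted p = 9.18e-16), with an STM2457 effect of 0.84 with emetine and 1.73 without.

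By the same limits on call, level and overlap as for the positive genes below, 11 other protein coding genes had the most negative interactions after ID3, and 8 of them had a fitted STM2457 effect above 0 without emetine and a smaller one, or one just below 0, with it. In SPSB2 (a SOCS box adaptor of a ubiquitin ligase; overlaps LRRC23 and TPI1) the effect was −0.03 with emetine and 1.25 without. In PTRH2 (mitochondrial peptidyl-tRNA hydrolase; overlaps CLTC and VMP1) it was −0.03 and 1.14. PTRH2 was at 74.1, 70.0 and 67.2 CPM in STM2457 with emetine, 72.5, 72.2 and 70.8 in DMSO with emetine, 85.8, 78.6 and 87.4 in STM2457 and 36.1, 36.4 and 42.2 in DMSO, so the emetine groups overlapped and those without emetine did not. ADPRM (a phosphatase of ADP-ribose; overlaps SCO1 and TMEM220) had 0.51 with emetine and 1.80 without, TBCC (tubulin folding cofactor C) 0.54 and 1.51, and THSD1 (a membrane protein with a thrombospondin repeat; overlaps VPS36) 0.40 and 1.37. MED18, a subunit of the Mediator complex, was at 43.8, 46.3 and 50.1 CPM in STM2457 with emetine, 30.1, 27.7 and 28.7 in DMSO with emetine, 64.2, 66.2 and 67.9 in STM2457 and 19.0, 18.6 and 21.1 in DMSO. Its groups did not overlap, and the effect was 0.70 with emetine against 1.76 without. LENG9 (overlaps LENG8) had 0.11 against 1.15 and LRRC75B (overlaps GGT1 and SNRPD3) −0.14 against 0.82. The interactions of all 11 ran from −1.29 (ADPRM, SE 0.13) to −0.97 (LRRC75B, SE 0.18), with an edgeR adjusted p of 0.00019 at most.

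The other 3 of these genes were lower with STM2457 than with DMSO under emetine. HOXA6, a homeobox transcription factor (overlaps HOXA3), was at 21.0, 21.3 and 22.2 CPM in STM2457 with emetine, 37.3, 37.2 and 35.2 in DMSO with emetine, 24.8, 23.8 and 25.3 in STM2457 and 19.0, 18.4 and 19.3 in DMSO. DMSO with emetine was the highest group and the others lay between 18.4 and 25.3 CPM, so that the effect was −0.77 with emetine and 0.38 without. TMEM186, an assembly factor of mitochondrial complex I (overlaps ABAT and PMM2), had −1.43 with emetine and −0.39 without, and TMEM187 −0.75 and 0.24.

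Some genes of the raised set had an interval that stayed close to 0. For 15 of the 256 the 95% interval of the interaction lay within −0.3 and 0.3. Such genes were not counted over all genes tested. The width also depends on the level, with a median SE of 0.09 over all genes tested and 0.06 where the mean log2 CPM was 5 or more. FEM1C, a substrate receptor of a cullin-2 ubiquitin ligase, was at 105, 103 and 105 CPM in STM2457 with emetine, 38.7, 41.1 and 39.1 in DMSO with emetine, 76.9, 78.5 and 75.6 in STM2457 and 27.5, 25.7 and 25.1 in DMSO. STM2457 stood far above DMSO in both settings, and the interaction was −0.16 (95% interval −0.29 to −0.04, edgeR adjusted p = 0.0686). FAM83D, a spindle protein, had −0.16 (−0.28 to −0.03), MFSD5, a transporter, −0.01 (−0.16 to 0.14), and KCTD6, an adaptor of cullin-3 ligases, 0.01 (−0.17 to 0.19). The STM2457 effects of these 4 genes were 1.10 to 1.43 with emetine and 1.09 to 1.56 without.

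Among called protein coding genes whose mean log2 CPM was 2 or more and whose library differences did not overlap, HNRNPLL and CHAC1 had the most positive interactions. HNRNPLL (ENSG00000143889.16, chromosome 2, 38561978 to 38603586) encodes a splicing regulator. It was at 29.1, 33.3 and 30.0 CPM in STM2457 with emetine, 49.4, 53.2 and 52.1 in DMSO with emetine, 8.91, 6.70 and 7.84 in STM2457 and 46.1, 48.6 and 48.0 in DMSO. STM2457 alone held the lowest values by far, and the fitted effect of emetine was 1.98 in STM2457 and 0.12 in DMSO. The interaction was 1.86 (SE 0.10, edgeR adjusted p = 9.18e-16). CHAC1 (ENSG00000128965.13, chromosome 15, 40952962 to 40956519) degrades glutathione and is a target of the stress factor ATF4. It was at 7.99, 7.35 and 7.11 CPM in STM2457 with emetine, 0.913, 1.16 and 0.855 in DMSO with emetine, 11.97, 13.7 and 14.8 in STM2457 and 6.83, 6.51 and 6.35 in DMSO. DMSO with emetine was the low group, and the interaction was 1.89 (SE 0.20, edgeR adjusted p = 3.05e-09).

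**Figure D3:**
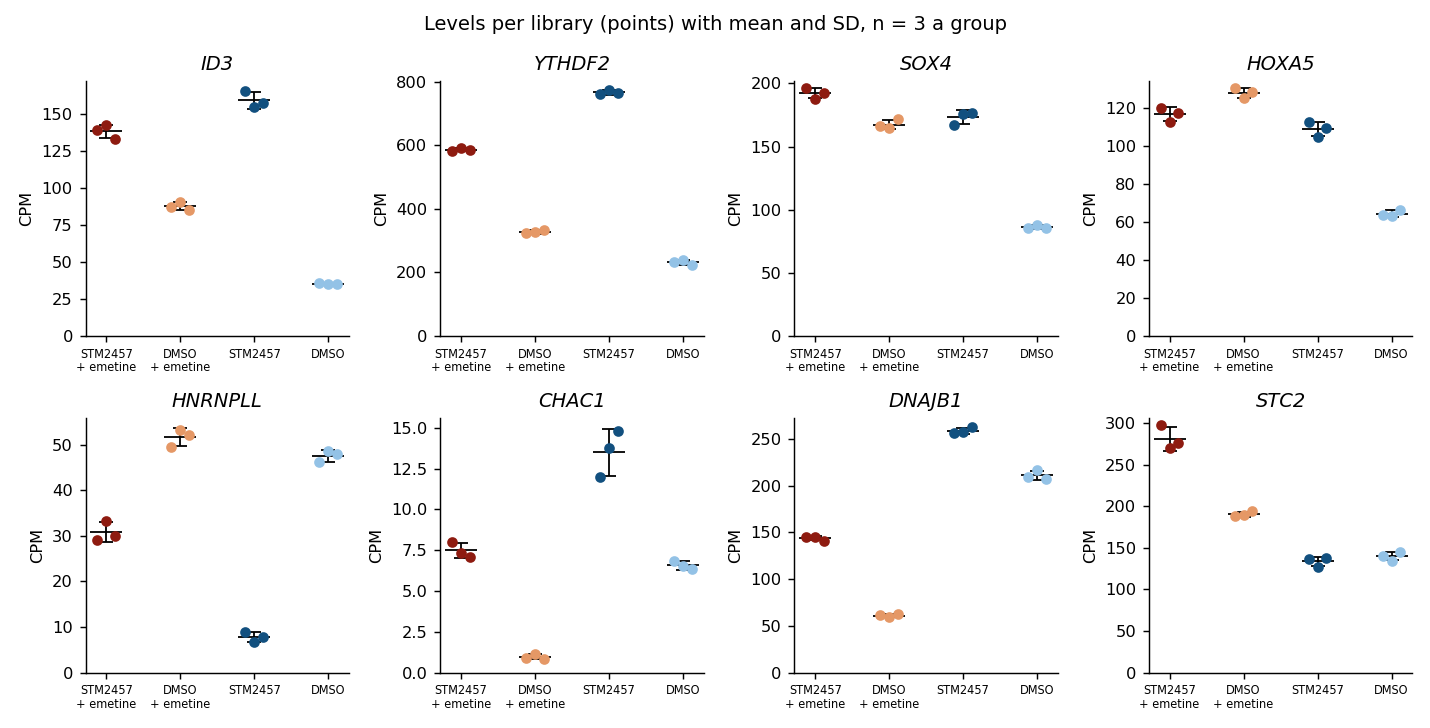
Levels (CPM after TMM scaling, linear axes from 0) of 8 genes in each library, as points, with the mean and SD of the 3 libraries of a group. ID3, YTHDF2, SOX4 and HOXA5 have negative interactions, from −1.51 to −0.81, and the ratio of STM2457 over DMSO is smaller with emetine; HNRNPLL, CHAC1, DNAJB1 and STC2 have positive ones, from 0.63 to 1.89.

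The other 10 protein coding genes with the most positive interactions by these limits fell into 2 kinds. In 7 of them STM2457 stood below DMSO without emetine, and by less or not at all with it. PCNX4 (overlaps DHRS7) was at 36.2, 35.8 and 36.8 CPM in STM2457 with emetine, 75.4, 72.8 and 75.4 in DMSO with emetine, 23.1, 20.0 and 18.2 in STM2457 and 76.2, 77.1 and 77.4 in DMSO. The DMSO groups with and without emetine lay close together and STM2457 was higher with emetine, an interaction of 0.88 (SE 0.07, edgeR adjusted p = 1.45e-10). HARS2, the mitochondrial histidyl-tRNA synthetase (overlaps HARS1 and ZMAT2), had an STM2457 effect of −0.40 with emetine and −1.15 without. PDRG1, a prefoldin-like protein (overlaps TTLL9), had −0.36 and −1.11, ZNF324B −0.77 and −1.57, and AOC2, an amine oxidase, 0.05 and −0.85. For SMIM10L2B these were 0.01 and −0.74, and for RGS2, which switches off G protein signals, −0.05 and −0.77.

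In the other 3, STM2457 stood above DMSO in both settings, and by more with emetine. DNAJB1, the HSP40 partner of HSP70 (overlaps TECR), was at 145, 145 and 141 CPM in STM2457 with emetine, 61.7, 59.2 and 62.2 in DMSO with emetine, 256, 257 and 263 in STM2457 and 209, 217 and 208 in DMSO. The fitted effect of emetine was −0.85 in STM2457 and −1.79 in DMSO, and the interaction was 0.94 (SE 0.05, edgeR adjusted p = 9.18e-16). KCNJ14, an inward rectifier potassium channel (overlaps GRWD1 and a gene without a symbol), had STM2457 effects of 2.28 with emetine and 0.99 without. JDP2, a repressor that pairs with JUN, had 1.32 and 0.58.

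Among genes lowered in the knockdown experiment, the interval lay within −0.3 and 0.3 for 8 of 381. The median log2 CPM of these 381 was 0.20, against 4.44 over all genes tested, and SEs were larger at low levels. ATXN7L3B, which inhibits the deubiquitinase module of SAGA, was at 48.6, 50.8 and 46.0 CPM in STM2457 with emetine, 157, 171 and 159 in DMSO with emetine, 48.1, 46.9 and 51.6 in STM2457 and 168, 172 and 166 in DMSO. The libraries with and without emetine overlapped within STM2457 and within DMSO, and the interaction was 0.05 (95% interval −0.08 to 0.17, edgeR adjusted p = 0.688). WDR6, a partner in tRNA methylation (overlaps DALRD3 and P4HTM), had 0.11 (−0.01 to 0.23), FAAP100, of the Fanconi anaemia core complex, 0.00 (−0.15 to 0.15), and LINC00205 −0.01 (−0.22 to 0.21). Their STM2457 effects were −2.06 to −1.57 with emetine and −2.17 to −1.57 without.

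Of the 2810 called genes, 2704 were protein coding. The 3 most negative noncoding genes by the naming rule, which sets limits on call, level and overlap, were CLUHP3, ZNF767P and EMSLR. CLUHP3 (−0.95, SE 0.12) and ZNF767P (−0.83, SE 0.12) are pseudogenes and EMSLR (−0.78, SE 0.09) is an antisense RNA. CLUHP3 was at 12.5, 10.7 and 12.7 CPM in STM2457 with emetine, 28.6, 26.6 and 27.4 in DMSO with emetine, 8.41, 7.42 and 7.52 in STM2457 and 8.53, 8.82 and 10.5 in DMSO, so that DMSO with emetine stood apart. The 3 most positive noncoding genes were the pseudogene ENSG00000215154.6 (1.18, SE 0.19), ATP6V0E2-AS1 (1.09, SE 0.16; overlaps ATP6V0E2) and the pseudogene GTF2IP13 (0.78, SE 0.20). ATP6V0E2-AS1 had STM2457 effects of −1.62 with emetine and −2.71 without.

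In the m6A pathway, 5 of 8 writer subunits had a negative call and none a positive one, and the median was −0.18. A negative call was made for 11.1% and a positive one for 6.71% of all genes tested. Among genes whose mean log2 CPM was 2 or more these shares were 14.8% and 9.16%. The median log2 CPM was 7.23 in the writers and 4.44 over all genes tested. RBM15, an RNA-binding subunit that guides the complex, was at 241, 243 and 241 CPM in STM2457 with emetine, 69.2, 68.6 and 69.3 in DMSO with emetine, 220, 226 and 226 in STM2457 and 51.0, 49.4 and 48.0 in DMSO. STM2457 stood above DMSO several-fold in both settings, and the interaction was −0.37 (SE 0.05, edgeR adjusted p = 9.4e-07). WTAP, the regulatory subunit (overlaps SOD2), had −0.31, METTL14, the partner of METTL3, −0.29 and the scaffold VIRMA −0.19. METTL3 (overlaps TOX4) had −0.13 (SE 0.06, edgeR adjusted p = 0.144). With scaling to the ERCC spike-ins 0 of the 8 writers passed, and 3 with scaling to ribosomal protein genes. Spike-in scaling lowered the calls over all 15817 genes tested to 478 negative and 227 positive, from 1748 and 1062. The spike-in counts of this list and of the lists below stand beside those totals. Of 12 readers and erasers 5 had a negative and 2 a positive call (2 and 0 with spike-in scaling), with YTHDF3 at −0.41 (SE 0.05), the demethylase ALKBH5 at −0.23 and the nuclear reader YTHDC1 at −0.26; the calls of ALKBH5 and YTHDC1 ended with either of those scalings.

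In the machinery of mRNA decay and ribosome rescue, calls in both directions stood beside each other, against 11.1% negative and 6.71% positive calls over all genes tested. Calls were more frequent at higher levels, with 14.8% and 9.16% of genes whose mean log2 CPM was 2 or more. The median log2 CPM was 5.94 to 7.01 in the lists of this paragraph and 4.44 over all genes tested. Of 14 deadenylase subunits of CCR4-NOT and PAN, 3 had a positive call (CNOT10 at 0.29, CNOT3 at 0.22, overlapping LENG1, and PARN at 0.24) and none a negative one; none passed with spike-in scaling. Of 14 decapping and P-body genes 3 were positive and 1 negative, with the decapping activator PATL1 at 0.33 (SE 0.05, edgeR adjusted p = 2.51e-05); 1 was positive and 0 negative with spike-in scaling. Of 14 factors of nonsense-mediated decay, SMG8 (overlapping a gene without a symbol), a regulator of the SMG1 kinase, had −0.61 (SE 0.05) and SMG9, its partner, 0.31 (SE 0.06; not called with spike-in scaling), and the other 12 were not called. Of 5 BTG and TOB adaptors, which recruit CCR4-NOT to mRNAs, BTG2 had −0.66 (SE 0.08) and TOB2 0.18, whose call ended with spike-in scaling. Of 14 genes that sense collided ribosomes and clear stalled mRNAs, 5 were positive and 2 negative, and with spike-in scaling 0 and 1. PELO, which splits stalled ribosomes (overlaps ITGA1), had −0.46 (SE 0.06), and ABCE1, its partner in recycling, 0.19 (overlapping genes that include OTUD4; not called with spike-in scaling).

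Lists of transcription factors and ubiquitin ligase adaptors held more negative calls than positive ones, as did all genes tested (11.1% and 6.71%). With spike-in scaling 478 of all 15817 genes tested were negative and 227 positive. Of 36 HOX genes tested of 39, which pattern the body axis, 16 (44.4%) had a negative and 0 a positive call, with a median of −0.35; with spike-in scaling 8 were negative. HOXA5 (overlaps HOXA3) was at 120, 113 and 117 CPM in STM2457 with emetine, 130.4, 125 and 128 in DMSO with emetine, 112, 105 and 109 in STM2457 and 63.4, 63.0 and 66.3 in DMSO. DMSO was the low group and the other 3 lay close together, an interaction of −0.89 (SE 0.05, edgeR adjusted p = 7.09e-14). HOXD13 had −0.63 (SE 0.05), with effects of 0.91 with emetine and 1.54 without, and HOXB9 (overlaps HOXB7) −0.48 (SE 0.05). Of 416 zinc finger (ZNF) genes tested of 510, 107 (25.7%) were negative and 14 positive, with a median of −0.17 and 35 negative calls under spike-in scaling. ZNF503 was at 1175, 1121 and 1089 CPM in STM2457 with emetine, 528, 542 and 570.2 in DMSO with emetine, 1034, 1077 and 1027 in STM2457 and 338, 337 and 302 in DMSO. STM2457 stood above DMSO in both settings, with an interaction of −0.64 (SE 0.06). ZNF593 (overlaps ZNF593OS) had −0.68 and ZNF48 (overlaps SEPTIN1) −0.58.

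Of 39 zinc finger genes with a BTB domain, 14 were negative and 1 positive (3 and 0 with spike-in scaling), with ZBTB21 at −0.62, ZBTB1 (overlaps ZBTB25) at −0.61 and ZBTB24 (overlaps MICAL1) at −0.55. Of 53 KLHL, KBTBD and KCTD genes, which bring substrates to cullin-3 ligases, 19 were negative and 4 positive (9 and 0 with spike-in scaling). KLHL21, an adaptor that acts in mitosis (overlaps PHF13), was at 127, 124 and 127 CPM in STM2457 with emetine, 104, 107 and 101 in DMSO with emetine, 205, 210.0 and 202 in STM2457 and 94.2, 92.8 and 82.6 in DMSO. STM2457 alone was the high group, and the interaction was −0.91 (SE 0.06, edgeR adjusted p = 8.07e-14). KLHL9 had −0.74 and KLHL11 −0.67. SOX4, a developmental transcription factor, had −0.81 (SE 0.05) and KLF9 −0.38 (not called with spike-in scaling) among 4 negative and 0 positive calls in 17 SOX and KLF genes (1 and 0 with spike-in scaling). Of 19 histone acetyl and methyl transferases 6 were negative and 1 positive, with NSD1 at −0.44 (SE 0.06) and the coactivators CREBBP and EP300 at −0.34 each; 1 of the 6 passed with spike-in scaling, and the call of NSD1 was among those that held under all alternatives. Of 29 protocadherins and cadherins 5 were negative and 0 positive (2 and 0 with spike-in scaling), with PCDH10 at −0.80 and PCDH9 at −0.58.

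Among genes of fast signalling, 9 of 36 immediate early genes (25%) had a negative and 3 (8.33%) a positive call (5 and 0 with spike-in scaling). The shares over all genes tested were 11.1% and 6.71%. DUSP1, a MAP kinase phosphatase, was at 97.7, 95.9 and 93.9 CPM in STM2457 with emetine, 87.9, 89.4 and 94.4 in DMSO with emetine, 25.01, 27.7 and 30.0 in STM2457 and 18.8, 17.9 and 16.03 in DMSO. Both emetine groups overlapped and were far above both groups without it, and the STM2457 effect was 0.08 with emetine and 0.65 without (interaction −0.57, SE 0.08, edgeR adjusted p = 1.93e-06). The small GTPase RHOB had −0.41 and ZFP36L1, which binds AU-rich elements, −0.40 (not called with spike-in scaling). Of 9 MAPK feedback inhibitors 2 were negative, ERRFI1, which blocks the EGF receptor, at −0.79 (SE 0.06) and DUSP14 at −0.38, of which ERRFI1 passed with spike-in scaling. Of 10 BMP and TGF-beta targets 3 were negative, with ID4 at −0.39, BAMBI at −0.27 and SMAD6 at −0.39, and none of these passed with spike-in scaling.

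**Figure D4:**
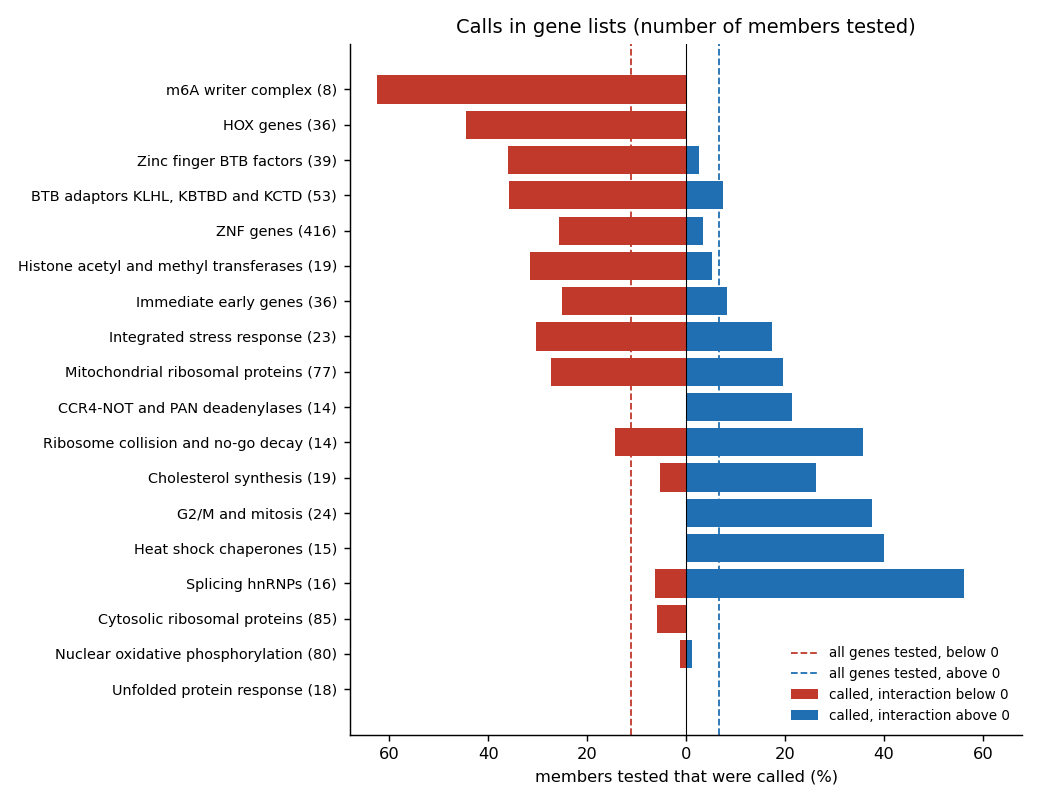
Share of the tested members of 18 gene lists with a called interaction below 0 (red, to the left) and above 0 (blue, to the right), in %; numbers in brackets are members tested, and dashed lines mark the shares over all genes tested, 11.1% and 6.71%. HOX genes and m6A writers have red bars and no blue one, and heat shock chaperones and G2/M genes blue bars and no red one. Where the mean log2 CPM was 2 or more, the shares over all genes were 14.8% and 9.16%.

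Heat shock chaperones were on the other side, with 6 of 15 positive (4 with spike-in scaling), 0 negative and a median of 0.13. Over all genes tested 6.71% were positive and 11.1% negative, and 9.16% and 14.8% where the mean log2 CPM was 2 or more. The chaperones had a median log2 CPM of 7.39, against 4.44 over all genes tested. HSPA8, the constitutive HSP70, was at 516, 529 and 490 CPM in STM2457 with emetine, 403, 425 and 423 in DMSO with emetine, 3038, 2892 and 2925 in STM2457 and 3013, 3044 and 3240 in DMSO. Both emetine groups stood severalfold below those without it, and STM2457 and DMSO overlapped without emetine and were apart with it, an interaction of 0.37 (SE 0.05, edgeR adjusted p = 3.5e-06). HSPA1B, an inducible HSP70 with a near-identical copy in HSPA1A, had 0.48 (SE 0.10) and the HSP90 cochaperone CHORDC1 0.32. In the integrated stress response, 4 of 23 genes were positive and 7 negative. STC2, a secreted glycoprotein, was at 298, 270.4 and 276 CPM in STM2457 with emetine, 188, 189 and 194 in DMSO with emetine, 136, 127 and 137 in STM2457 and 140, 135 and 145 in DMSO. STM2457 and DMSO overlapped without emetine and were apart with it (interaction 0.63, SE 0.05, edgeR adjusted p = 2.45e-10). SESN2, which restrains mTORC1, had 0.45 (SE 0.05) and CEBPG, a partner of ATF4, −0.35; 0 of the 7 negative calls passed with spike-in scaling.

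None of 18 genes of the unfolded protein response was called by edgeR, and 3 had an unadjusted p under 0.05; none was called with spike-in scaling, and 1 each with DESeq2 and with ribosomal protein scaling. Beside the counts in this paragraph stand 6.71% positive and 11.1% negative calls over all genes tested. These shares were 9.16% and 14.8% where the mean log2 CPM was 2 or more. Of 19 genes in the list for cholesterol synthesis 5 were positive and 1 negative (2 and 0 with spike-in scaling). The enzymes LSS and NSDHL had 0.34 and −0.39; NSDHL was not called with spike-in scaling. Of 24 genes of hypoxia and glycolysis NDRG1 was called, at −0.36, and none with spike-in scaling. Of 20 p53 targets 5 were negative and 1 positive (1 and 0 with spike-in scaling), with the repair factor XPC (overlaps LSM3 and a gene without a symbol) at −0.60. Of 13 NF-kB response genes tested of 20, 4 were positive and 2 negative (1 and 1 with spike-in scaling), with the apoptosis inhibitor BIRC2 at −0.55 and NFKBIA at 0.39. Of 17 genes of methionine and polyamine metabolism 3 were negative and 2 positive (1 and 1 with spike-in scaling), with AMD1, which makes the aminopropyl donor of polyamines, at −0.41 and AHCYL1 at 0.35. Of 17 interferon and innate sensing genes 2 were positive and 1 negative (0 and 1 with spike-in scaling), the last being IFIT1 (overlaps LIPA) at −0.72 (SE 0.16).

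Of 16 splicing hnRNP genes, 9 (56.2%) were positive and 1 negative, against 6.71% and 11.1% of all genes tested. Calls were more frequent at higher levels, with 9.16% and 14.8% where the mean log2 CPM was 2 or more. The median log2 CPM was 9.12 in the hnRNP genes, 7.17 in the G2/M genes below and 4.44 over all genes tested. The median interaction of the hnRNP genes was 0.15, and 2 were positive with spike-in scaling. HNRNPL, a paralog of HNRNPLL that overlaps a gene without a symbol, was at 314, 315 and 319 CPM in STM2457 with emetine, 383, 388 and 388 in DMSO with emetine, 266, 265 and 261 in STM2457 and 450, 450 and 449 in DMSO. The gap between STM2457 and DMSO was smaller with emetine, an interaction of 0.48 (SE 0.04, edgeR adjusted p = 4.52e-10). HNRNPF was the negative one, at −0.48 (SE 0.05), with effects of 0.29 with emetine and 0.77 without. Of 24 genes of G2/M and mitosis 9 were positive and 0 negative (2 positive with spike-in scaling, 13 with ribosomal protein scaling). CDC20, an activator of the anaphase-promoting complex, had STM2457 effects of −0.06 with emetine and −0.46 without (interaction 0.40, SE 0.05), and UBE2C, its ubiquitin carrier enzyme, −0.06 and −0.41. Of 22 genes of G1/S and replication 3 (13.6%) were negative and 2 (9.09%) positive, shares near those of all genes tested. With spike-in scaling the counts were 1 and 0. The flap endonuclease FEN1 (overlaps FADS2 and TMEM258) was at −0.54.

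Of 85 cytosolic ribosomal protein genes 5 (5.88%) were negative and 0 positive, against 11.1% and 6.71% of all genes tested. Their median of −0.06 was 0.01 with scaling to these genes, and 0 passed with spike-in scaling. Of 77 mitochondrial ribosomal protein genes 21 (27.3%) were negative and 15 (19.5%) positive, with a median of −0.04 that was above 0 with both other scalings; 8 were negative and 4 positive with spike-in scaling. MRPL36 was at 35.1, 34.3 and 37.1 CPM in STM2457 with emetine, 41.3, 42.5 and 40.5 in DMSO with emetine, 55.7, 54.1 and 57.2 in STM2457 and 40.2, 37.1 and 42.6 in DMSO. STM2457 was the highest group without emetine and the lowest with it, an interaction of −0.70 (SE 0.07, edgeR adjusted p = 4.54e-09). MRPS2 (overlaps PIERCE1) had −0.54. Of 80 nuclear genes of oxidative phosphorylation 1 was negative and 1 positive (0 and 0 with spike-in scaling). None of the 13 genes of mitochondrial DNA was called by edgeR, 4 had an unadjusted p under 0.05, and the median was −0.34; these took 1.96% to 3.55% of the counts and varied between libraries of one group, and 1 was called with spike-in scaling. Of 28 replication histone genes tested of 66, 4 were negative and 0 positive (2 and 0 with spike-in scaling), with H2BC21 at −0.96 (SE 0.17); poly(A) selection keeps few transcripts of such genes.

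Genes with few coding exons had the more negative interactions. Over 743 genes with 1 coding exon the median was −0.20, over 688 with 2 it was −0.17, over 2677 with 3 to 5 it was −0.06, over 3728 with 6 to 10 it was 0.00 and over 5320 with 11 or more it was 0.03. The share with a negative call was 30.6%, 28.5%, 16.2%, 10.9% and 7.80% in these bins, and the share with a positive call 2.83%, 1.6%, 4.56%, 8.64% and 10.3%. The order was the same among genes whose mean log2 CPM was 5 or more (medians −0.22, −0.16, −0.05, 0.01 and 0.04), among genes outside the raised set (−0.18, −0.14, −0.05, 0.00 and 0.03) and with ZNF genes left out (−0.20, −0.16, −0.05, 0.01 and 0.03). Within the raised set the medians were −0.48, −0.46, −0.52, −0.40 and −0.61, with 10 genes in the last bin, so there was no such order among its members. The median STM2457 effect without emetine also differed by bin, from 0.25 with 1 coding exon to −0.02 with 11 or more. Outside the raised set it went from 0.21 to −0.02. Whether exon number went with the interaction apart from that effect was not tested. Of the 12 most negative protein coding genes named above, 9 had 1 or 2 coding exons, and of the 12 most positive 2 had. Among all 13156 genes in these bins, 743 had 1 and 688 had 2, so the 2 most positive ones were not fewer than in general.

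Exon length went with the same difference. The longest coding exon had a median of 749 bases in genes called negative, 227 in genes called positive and 304.5 in all. In 4 equal groups of its length, from short to long, the median interaction was 0.05, 0.04, −0.04 and −0.15, and the share called negative 2.82%, 4.97%, 14.5% and 28.8%. By the length of the whole coding sequence the medians were −0.01, 0.00, −0.01 and −0.01 and the share called negative 10.3%, 12.1%, 14.1% and 14.6%. By DRACH motifs per kb of coding sequence the medians were −0.02, −0.01, 0.00 and 0.00 and that share 11.1%, 12.6%, 13% and 14.4%, a smaller spread than by exon length. The median number of DRACH motifs per kb was 20.3 in genes called negative, 20.0 in those called positive and 19.7 in all. These are descriptions across genes, which are not independent replicates and which share the libraries and their depth.

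**Figure D5:**
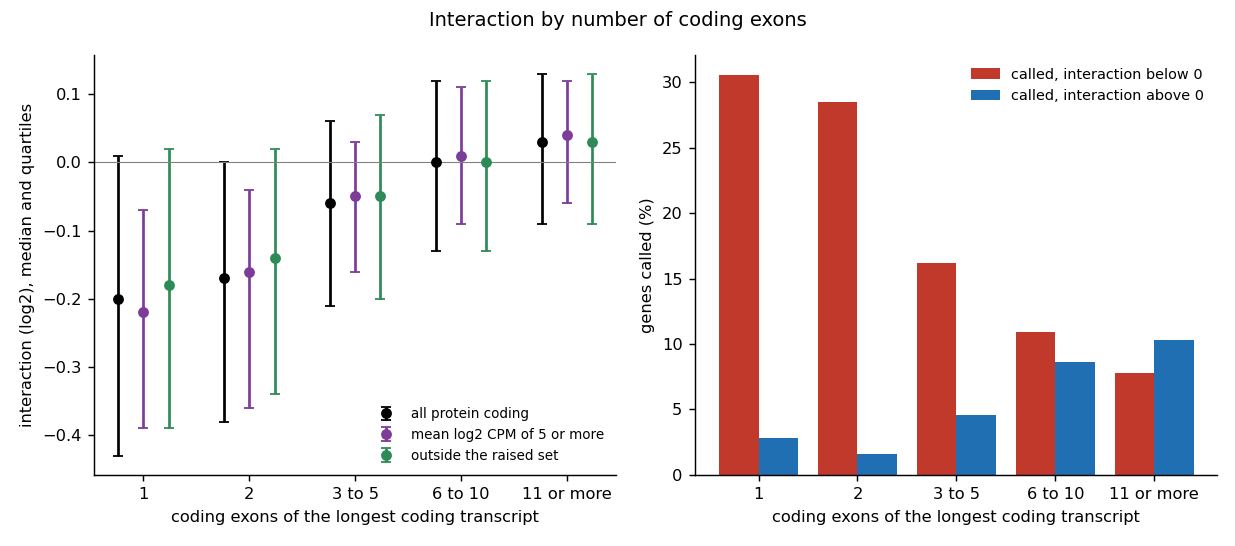
Interaction (log2) by the number of coding exons of the longest coding transcript. Left, median and quartiles over all protein coding genes (black), those whose mean log2 CPM was 5 or more (purple) and those outside the raised set (green), with medians from −0.20 to 0.03 in black; right, share of genes (%) called below 0 (red, 30.6% to 7.80%) and above 0 (blue, 2.83% to 10.3%).

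The interaction of STM2457 with YTHDF2 siRNA, measured in 12 libraries of the knockdown experiment, is the other test in the study of an STM2457 effect under a second treatment, and both were set in 1 fit of 24 libraries. YTHDF2 itself averaged 78.9 ± 3.41 CPM in STM2457 with the knockdown, 44.3 ± 1.11 in DMSO with the knockdown, 636 ± 39.0 in STM2457 and 183 ± 4.25 in DMSO (SD, n = 3 each), lower with the siRNA in both settings. The siRNA lowers 1 of the readers that link m6A to decay, whereas emetine stops the ribosome. In that fit 1118 of 17084 genes (6.54%) had a negative interaction with emetine and 1563 (9.15%) a negative one with the siRNA; 899 (5.26%) and 566 (3.31%) were positive. Over the 381 tested genes raised at 9 h, whose libraries neither interaction uses, the medians were −0.34 with emetine and −0.29 with siRNA, 104 and 100 genes were called negative and 66 in both. Those 66 were 63.5% of the first and 66.0% of the second count; over all genes 642 were negative in both, 57.4% and 41.1% of the counts. The difference between both interactions passed for 10 and 14 of these 381 in the negative and positive direction.

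Over all genes the difference between both interactions was called for 349 (2.04%), 92 (0.539%) more negative and 257 (1.5%) more positive with emetine. That count depended on the scaling: it was 2 with spike-ins, ID3 and CHAC1, and 26 with ribosomal protein genes. ID3 differed most in the negative direction, with an interaction of −1.48 with emetine and 0.22 with siRNA (difference −1.70, SE 0.14, edgeR adjusted p = 8.57e-09). CHAC1 differed most in the positive direction, with 1.93 with emetine and −0.08 with siRNA (difference 2.01, SE 0.25, edgeR adjusted p = 3.67e-06). HNRNPLL had 1.9 with emetine and 0.64 with siRNA. C2orf69 (overlaps MAIP1 and TYW5) had 0.27 with emetine and −0.92 with siRNA, and LRFN3, a synaptic adhesion protein, 0.44 and −0.77.

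The number of calls depended on the scaling. With scaling to the ERCC spike-ins 705 genes were called, 478 of them negative and 22 of these by 2-fold or more, against 50 with TMM, and with scaling to ribosomal protein genes 2279, of which 41.1% were negative against 62.2% of the 2810; the shift over all genes was 0.05 and 0.07 (log2), and 0 calls turned their direction.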

How the data were processed

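RNA was poly(A)-selected and libraries were made with a TruSeq strand-specific kit, per the labels' protocols. The submitters' processing notes name STAR 2.7.3a and featureCounts of Subread 2.0.0, the build GRCh38.p12, and, for reads and files, Trimmomatic, cutadapt (4.0 among its versions), SAMtools 1.9 and FastQC 0.11.8. Annotation and strand setting: not given in the sources used here. Genes that overlap another are therefore named as such. The deposited values are raw counts per gene, made by the authors, for 60662 gene IDs, of which 58587 are in GENCODE release 29, and for 92 ERCC spike-in RNAs, which were set apart. Coordinates are those of GRCh38 in that release.

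Counts were scaled by TMM after edgeR's filter on low counts, and the interaction was tested with edgeR 4.0.16 (R 4.3.3) by the quasi-likelihood test in 1 fit of the 12 libraries. P-values were adjusted by Benjamini and Hochberg over all genes tested, with 0.05 as the threshold, and standard errors are Wald errors of the fit. DESeq2 1.42.0, scaling to ERCC or to ribosomal protein genes, no filter, a replicate block and leaving out each library were alternatives. The test was checked on simulated data. Sets of genes raised or lowered by STM2457 came from separate libraries, by the same test and a 2-fold threshold. No libraries agreed within sampling noise. Deviations from the group means correlated at −0.123 to 0.119 for the same replicate number and −0.146 to 0.171 for other numbers. No pairing by number was seen, but with 3 libraries a group this cannot show that there was none.

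Named were METTL3 and YTHDF2, the 12 protein coding and 3 noncoding genes most negative and most positive among called genes whose mean log2 CPM was 2 or more and whose library differences did not overlap, up to 4 members of each list by p, 4 members of each set by p and 4 with an interval within −0.3 and 0.3, and the 5 genes largest in each direction of the difference between both interactions. The members and lists were chosen with earlier results of these data known.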

Additional observations from a re-analysis of the deposited data

Results flagged for a closer look

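For 349 genes the interaction of STM2457 with emetine differed from its interaction with YTHDF2 knockdown (edgeR adjusted p under the threshold of 0.05). This was a test of the difference itself in the fit of 24 libraries. The 10 flagged here are the 5 largest in each direction among protein coding genes whose mean log2 CPM was 2 or more. More negative with emetine were ID3 (difference −1.70, log2), SPSB2 (−1.26), BCHE (−0.95), ZNF133 (−0.93) and ATF3 (−0.90). More positive with emetine were SMIM10L2B (1.13), C2orf69 (1.18), LRFN3 (1.21), HNRNPLL (1.26) and CHAC1 (2.01).

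BCHE, a cholinesterase, had an interaction of −0.12 with emetine and 0.84 with the knockdown, and ATF3, a stress-induced transcription factor, −0.25 and 0.65, so that for both the larger interaction was the one with the knockdown. In the fit of 24 libraries their interaction with emetine was not called (edgeR adjusted p = 0.787 and 0.157). ZNF133 had −0.80 with emetine and 0.13 with the knockdown. With scaling to the spike-ins the call of the difference held for ID3 and CHAC1 and ended for the other 8. With scaling to ribosomal protein genes it ended for SPSB2, BCHE and SMIM10L2B, and for BCHE also without any of 3 single libraries. The emetine and knockdown libraries come from separate experiments, and differences between those experiments other than the treatment cannot be told apart from the treatment.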

How the results depend on the processing

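With ERCC scaling 705 interactions were called (227 positive, 478 negative, 22 of these by 2-fold), and the difference between both interactions for 2 genes (1 and 1). Set medians (and the calls that moved by more than 1.5 times) were −0.40 for genes raised and 0.13 for those lowered in the knockdown experiment (16 positive), and −0.33 (69 negative) and 0.21 (7 positive) for those of the 9 h experiment. With ribosomal protein scaling 936 were negative (41.1% of the calls, against 62.2%), the difference was called for 26 (16 positive, 10 negative), and the medians were −0.39, 0.15, −0.31 and 0.23. DESeq2 called 5 positive and 11 negative by 2-fold, giving no adjusted p for 14 of the 19 and 39 of the 50, and 162 differences were negative. With no filter 32 were positive by 2-fold, and the medians in the knockdown sets were −0.47 and 0.04. With sets at 1.5-fold the medians were −0.34 (644 negative), 0.05 (79 positive), −0.30 (600 negative) and 0.18 (142 positive); these sets are larger. Except where said, the cause was not tested.

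Leaving out each library gave 2275 to 3142 calls, 762 to 1398 positive and 1426 to 1744 negative, and by 2-fold 15 to 40 positive (40 without STM2457 replicate 2) and 36 to 67 negative. The difference was called for 242 to 538 genes (538 without replicate 3 of STM2457 6 h in the knockdown experiment), 169 to 395 positive (169 without replicate 1 of DMSO with emetine, 171 without replicate 1 of STM2457 with emetine) and 64 to 143 negative. The medians ran from −0.48 to −0.43, 0.04 to 0.10, −0.41 to −0.35 and 0.09 to 0.20. With the replicate block 2838 interactions were called. Of the 170 called genes chosen by the naming rule, 87 stayed called with ERCC scaling, 144 with ribosomal protein scaling and 155 to 166 without 1 library, and of all 220 none turned direction.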
